A study of Mus musculus with 4 samples.

Results

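A set of 10 genes named by studies of the Hippo pathway as targets of YAP and TAZ, other than those of the CCN family, were followed in mouse embryonic fibroblasts (MEFs): Ankrd1, Amotl2, Axl, Jub, Crim1, F3, Fjx1, Foxf2, Gadd45b and Nt5e. They were taken by their symbols in the array annotation, which holds Ajuba under its older name Jub, and make up 10 of 27745 gene or transcript names and 14 of 41174 probes outside the controls. These genes and the gene lists below were chosen with earlier results of these data known. Their counts beside the shares of all probes are therefore description and no test. The cells were derived from C57BL/6J mice whose labels give the genotype as Lats2-/- (KO) or Lats2+/+ (WT). For each genotype, RNA of a low density culture, kept 48 h and still subconfluent, was set against RNA of a high density culture, kept 3 to 5 days, on 2-colour Agilent arrays. Culture time thus changed together with density, and the density effect below holds both. Of the 4 arrays, 2 belonged to each genotype, the second with Cy3 and Cy5 exchanged, and each combination of genotype and density was counted as 1 replicate read in 2 channels. The labels call the pair a dye swap but do not say whether both arrays used the same RNA, and the KO arrays were scanned 7 months apart. No test between conditions was made, and the SD given beside a value is that of the 2 arrays or dyes, which leaves out the spread between cultures if the RNA was the same.

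The Hippo pathway is a chain of kinases ending in LATS1 and LATS2, which phosphorylate the transcriptional coactivators YAP and TAZ and keep them out of the nucleus. YAP and TAZ do not bind DNA themselves but act through TEAD transcription factors, and crowding of cells is one of the best known conditions that switch the kinases on. The 10 genes differ in what their products do. Amotl2, Jub and Fjx1 act on the pathway itself or on proteins upstream of it, Ankrd1, Foxf2 and Gadd45b encode nuclear or stress response proteins, and Axl, Crim1, F3 and Nt5e encode proteins of the cell surface.

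A few properties of the arrays bear on every value. The share of features well above background ran from 52.8% to 67.7% by channel, and 0 features were saturated. All 10 genes had a probe well above background in all 8 channels, and that brightest probe stands for the gene. Of the 4 Lats2 probes, 3 read higher and 1 lower in the KO channels at both densities, so WT and KO name labels throughout and each direction between genotypes rests on them. The part of Lats2 that the allele lacks is not given in the sources used here, and a probe outside it does not check the label. The study checked the knockout in its fibroblasts by western blotting of the Lats2 protein, which was not analysed here. Both WT arrays were scanned on 1 day and the KO arrays on 2 other days, so scan day and genotype cannot be told apart. Of 10 fibroblast markers 9 were well above background in every channel, and Pdgfra was not. Of the markers of other cell types, 3 of 5 for endothelium (Pecam1, Cdh5 and Tie1) and 3 of 5 for macrophages (Ptprc, Emr1 and Itgam) were well above background in no channel. The same held for 4 of 5 for epithelium (Epcam, Cdh1, Krt8 and Cldn4) and 4 of 6 for muscle (Myog, Actn2, Myh6 and Des). Of the other markers in these lists, the lysosomal Cd68 was well above background in every channel, and Kdr, Tek, Csf1r, Krt18, Myod1 and Nppa were so in some channels. Nppa passed the 2-fold rule described below in WT cells, where it was at least 2.10-fold lower at high density, and was lower in KO cells at low density (-1.20, with 1 of 2 KO readings well above background). Its part in the values below was not tested. The summed log2 signal of the fibroblast list was 18.73 to 19.07 in WT cells at both densities and 18.78 to 18.80 in KO cells at low density, against 19.58 and 20.01 in KO cells at high density. The sum hides members that moved apart. With density, 4 of the 10 rose in WT cells, among them Dcn (5.57) and Col3a1 (4.14), and Fn1 (-1.60) and Thy1 (-1.18) fell, by the same rule (7.62% of all tested probes rose and 5.72% fell). In KO cells 6 rose, Dcn by 6.12 among them, and S100a4 fell (-2.46), with 5.90% and 3.73% of all probes. Between genotypes 2 were higher and 2 lower in KO cells at low density (6.86% and 7.07% of all probes), and 4 higher and 1 lower at high density (6.41% and 6.62%). The part of this list in the values below was not tested. For the muscle list the sum was 8.98 and 9.07 in WT cells at low density and 8.60 to 8.70 in the other channels. For the epithelial list it was 8.64 and 8.67 in WT cells at low density and 8.28 to 8.47 in the other channels. Its Krt18 was well above background in WT cells at low density but in no channel of WT cells at high or KO cells at low density. The part of both lists was not tested either. In bulk RNA, fewer cells that express a gene and less of its RNA per cell cannot be told apart.

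In WT cells, 6 of the 10 genes fell with density and none rose. A gene was counted as fallen or risen if its log2 ratio, averaged over the arrays, reached 1 in either direction, a 2-fold change, with the same sign on both arrays. Over all 22586 tested probes this rule found 5.72% lower and 7.62% higher. The genes that fell were Ankrd1, Jub, Crim1, Amotl2, Gadd45b and Axl, and the 10 genes had a median log2 ratio of -1.41 (high over low density) where that of all 14894 tested genes was 0.06. In KO cells 5 genes fell (Ankrd1, F3, Crim1, Amotl2 and Axl), with 3.73% of all tested probes lower, and Fjx1 rose, with 5.90% higher. The median there was -0.94, against 0.06 over 15461 genes. The 4 genes that fell in both genotypes were Ankrd1, Amotl2, Axl and Crim1, against 1.68% of the 21541 probes tested in both. Jub and Gadd45b fell in WT cells and passed the rule in neither direction in KO cells, as did 4.07% of those probes. F3 fell and Fjx1 rose in KO cells without passing it in WT cells, as did 2.16% and 2.78%. Foxf2 and Nt5e passed it in neither genotype, like 81.8% of the probes.

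**Figure D1:**
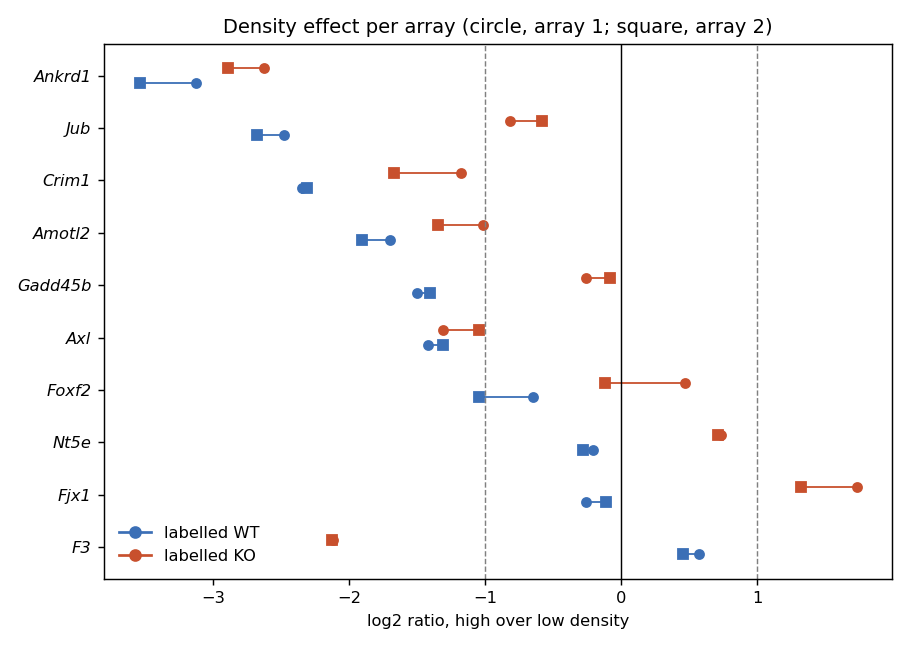
Density effect of the 10 genes as the log2 ratio of high over low density (x axis), with WT in blue and KO in red, 1 point per array (circle, array 1; square, array 2) joined by a line; dashed lines mark a 2-fold change. Ankrd1 lies at the left end in both genotypes, while the means of F3, Fjx1, Foxf2 and Nt5e have opposite signs in WT and KO cells.

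The DNA in front of these genes was read for the core of the sequence that TEAD proteins bind, since the genes share a regulator by name. RefSeq promoter windows (250 bases before to 50 bases after the start of the gene, build GRCm38.p6) were found for 9 of the 10 genes, all but Fjx1. The letters GGAATG, on either strand, occurred in 5 of the 9 windows and in 14.7% of all 32851 windows. The 5 genes were Ankrd1, Amotl2, Axl, Ajuba and Crim1, which are 5 of the 6 that fell with density in WT cells; Gadd45b, the sixth, held no match. The stretches around the matches are printed 5′ to 3′ on the strand of the gene, with the match in capitals (CATTCC is GGAATG read on the other strand), because they show which members carry the element and how far apart its copies lie.
Ankrd1: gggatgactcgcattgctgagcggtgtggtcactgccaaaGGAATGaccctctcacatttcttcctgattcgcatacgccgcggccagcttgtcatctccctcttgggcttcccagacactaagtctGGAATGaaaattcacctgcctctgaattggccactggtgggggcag
Amotl2: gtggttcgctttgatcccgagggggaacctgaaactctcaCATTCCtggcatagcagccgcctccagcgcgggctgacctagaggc
Axl: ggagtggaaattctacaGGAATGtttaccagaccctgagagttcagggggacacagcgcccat
Ajuba: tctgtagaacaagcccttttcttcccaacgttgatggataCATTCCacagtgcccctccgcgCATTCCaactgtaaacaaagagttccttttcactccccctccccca
Crim1: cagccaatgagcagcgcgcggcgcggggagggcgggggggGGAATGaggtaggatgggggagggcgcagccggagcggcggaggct
The Ankrd1 stretch lies at chr19:36119922-36120094 on the minus strand and holds 2 matches, which end 205 and 118 bases before the start of the gene. In Amotl2 (chr9:102717699-102717784, plus strand) the match ends 60 bases before the start. For Axl (chr7:25788921-25788983, minus strand) it ends 228 bases before, and for Crim1 (chr17:78200129-78200214, plus strand) 74 bases before. Ajuba (chr14:54577780-54577887, minus strand) held 2 matches, both on the opposite strand, ending 181 and 159 bases before the start. Ankrd1 and Ajuba, the genes with 2 copies, were also those with the lowest WT density effects, which was seen after the fact and was not tested.

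The F3 window held no GGAATG. It was the 1 window of 9 with the AP-1 element TGANTCA, which 7.81% of all windows held. A count of 1 in 9 is near that share, and its relation to the values of F3 was not tested. AP-1 factors are dimers of Fos and Jun proteins. Both copies are shown in capitals, on the strand of the gene at chr3:121723351-121723448 (plus strand), and end 140 and 129 bases before the start.
F3: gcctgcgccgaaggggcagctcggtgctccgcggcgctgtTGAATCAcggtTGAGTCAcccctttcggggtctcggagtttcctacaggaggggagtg
None of the 9 windows held the palindromic SMAD element GTCTAGAC, a CArG box or an NF-kB site, which 0.213%, 1.63% and 5.80% of all windows held. A match is a description of the letters and was not tested as a binding site. Over all genes with a window, 8.15% of the 1398 with GGAATG fell with density in WT cells and 6.54% of the 8288 without it, and in KO cells 4.61% of 1431 and 4.13% of 8433. For TGANTCA the shares were 7.77% of 605 with it and 6.71% of 9081 without it in WT cells, and 6.36% of 613 and 4.05% of 9251 in KO cells.

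Ankrd1, which encodes an ankyrin repeat protein known from stretched and stressed striated muscle, had the lowest density effect of the 10 genes in both genotypes. Its probe A_52_P120803 (chromosome 19, 36177463 to 36177522, minus strand, build mm8) gave log2 normalized intensities of 14.54 and 14.68 in WT cells at low density and 11.41 and 11.13 at high density. In KO cells it gave 13.94 and 14.13 at low density and 11.31 and 11.24 at high density. Low density channels were thus all above high density channels, and at high density the genotypes overlapped. The log2 ratio was -3.34 ± 0.29 (SD of 2 arrays) in WT cells, a 10.1-fold fall, and -2.76 ± 0.19 in KO cells, 6.78-fold. Of all tested genes, 0.0873% lay lower in WT cells and 0.0776% in KO cells. Between the genotypes Ankrd1 differed by -0.57 (KO over WT) at low density and by 0.00 at high density, where the sign moved with the processing (0.26 without scaling between arrays, where the median of all probes was 0.27, and -0.08 with median centring).

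The genes whose pattern lay nearest to that of Ankrd1 were found by the Euclidean distance over 3 log2 ratios, the WT density effect, the KO density effect and the genotype difference at low density, among the 19498 probes that cleared background in all 8 channels. Ptgs2, the inducible cyclooxygenase, was nearest at 0.657, with density effects of -3.39 in WT and -2.11 in KO cells. It was followed by the adhesion molecule gene Mcam (0.779), smooth muscle actin Acta2 (0.804), 1110032E23Rik (0.855) and troponin T2, Tnnt2 (0.966).

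**Figure D2:**
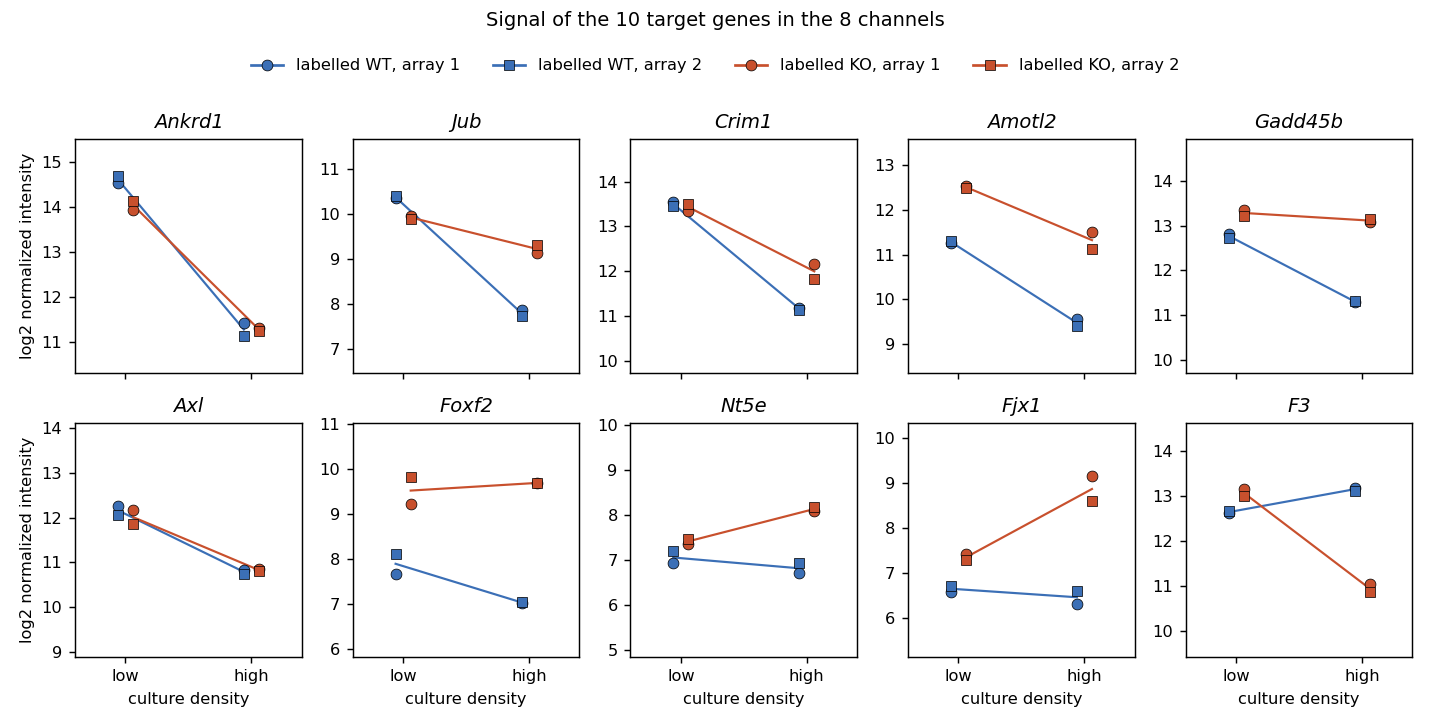
Log2 normalized intensity of the 10 genes (y axis, each panel spanning the same number of log2 units) at low and high density (x axis), 1 point per array and channel, WT in blue and KO in red (circle, array 1; square, array 2), with lines joining the means. The lines of Axl nearly overlap and those of Ankrd1 meet at high density. Amotl2, Fjx1, Foxf2, Gadd45b and Nt5e lie higher in KO cells at both densities. The lines of F3 and Jub cross, as do those of Crim1, which nearly meet at low density.

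Amotl2 and Jub act on the pathway that they are listed under. Amotl2, an angiomotin relative, binds YAP and holds it at junctions and in the cytoplasm, and the LIM protein Ajuba binds LATS kinases and restrains them. For Amotl2 the probe (A_51_P348804, chromosome 9, 102590845 to 102590904, plus strand, mm8) read 11.25 and 11.31 in WT cells at low density and 9.56 and 9.40 at high density, and 12.53 and 12.47 then 11.51 and 11.13 in KO cells. It was lower at high density in both genotypes and higher in KO cells at both densities, with no overlap between any of the 4 groups except that the KO high density channels lay on both sides of the WT low density channels. The density effect was -1.80 ± 0.15 in WT cells and -1.18 ± 0.23 in KO cells. KO exceeded WT by 1.22 ± 0.08 at low and 1.84 ± 0.16 at high density, 2.34-fold and 3.58-fold.

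Jub kept more of its signal at high density in KO cells. Its probe (A_52_P131548, chromosome 14, 53522180 to 53522239, minus strand, mm8) gave 10.35 and 10.40 in WT cells at low density and 7.87 and 7.72 at high density, a log2 ratio of -2.58 ± 0.14 and a 5.98-fold fall (-3.17 with the processed signals and -3.21 in the deposited value table). In KO cells the values were 9.95 and 9.89 at low density and 9.13 and 9.31 at high density, a ratio of -0.70 ± 0.17, which did not reach the 2-fold limit. WT cells at high density were thus the lowest channels, and KO cells at high density lay 1.43 ± 0.23 above them. At low density Jub was lower in KO cells by a log2 ratio of -0.45. The density effect differed by 1.88 (KO minus WT), the highest of the 10 genes here, although the dyes of Jub and Fjx1 overlapped and with the processed signals Fjx1 (2.86) lay above Jub (2.49).

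Fjx1 encodes the vertebrate relative of the fly kinase four-jointed, which acts in the Golgi on the cadherins Fat and Dachsous. Its signal was low, 6.58 and 6.72 in WT cells at low density and 6.32 and 6.61 at high density (A_51_P355589, chromosome 2, 102251500 to 102251559, minus strand, mm8). KO cells gave 7.42 and 7.28 at low density and 9.15 and 8.60 at high density. KO cells at high density stood above all the other channels. The density effect was 1.52 ± 0.29 in KO cells, where 97.2% of tested genes lay lower, and -0.19 ± 0.10 in WT cells. At high density KO exceeded WT by 2.41 ± 0.59, or 5.31-fold, and at low density by 0.70 ± 0.20. The background correction used here shrinks ratios of dim probes. With the processed signals of the scanner software the genotype difference was 4.13 at high and 1.27 at low density, the latter past the 2-fold limit, and the WT density effect was -0.80. Those signals raise the share of all probes past 2-fold, from 13.3% to 25.5% for the WT and 9.63% to 20.5% for the KO density effect, from 13.9% to 27.0% and 13.0% to 25.0% between genotypes at low and high density, and to 14.7% for the difference of density effects.

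Gadd45b, a stress-induced protein that binds the kinase MAP3K4, was read by 2 probes. The brighter (A_51_P500984, chromosome 10, 80335274 to 80335333, plus strand, mm8) gave 12.81 and 12.73 in WT cells at low density and 11.30 and 11.32 at high density. Its KO values were 13.34 and 13.22 at low density and 13.08 and 13.14 at high density. The WT high density channels were the lowest, and those of the KO densities lay close together. The log2 ratio of high over low density was -1.46 ± 0.07 in WT and -0.17 ± 0.13 in KO cells, and the other probe (A_52_P1197913) gave -1.51 and -0.33. KO exceeded WT by 1.80 at high density on both probes (3.48-fold) and by 0.51 and 0.62 at low density.

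Foxf2 encodes a forkhead transcription factor of mesenchymal cells. Its probe (A_51_P248865, chromosome 13, 31638735 to 31638794, plus strand, mm8) read 7.67 and 8.10 in WT cells at low density and 7.02 and 7.05 at high density, against 9.21 and 9.82 and then 9.69 and 9.69 in KO cells. KO channels lay above WT channels at both densities. KO exceeded WT by 1.63 ± 0.12 at low density (3.09-fold) and by 2.66 ± 0.02 at high density (6.31-fold). At low density its value was the highest of the 10 genes. At high density Foxf2 and Fjx1 overlapped on single dyes, and with the processed signals Fjx1 (4.13) lay above Foxf2 (3.74). The density effect was -0.85 ± 0.28 in WT cells, with 1 array at -0.65 and the other at -1.05, and 0.18 ± 0.42 in KO cells, where the arrays had opposite signs. With the processed signals it was -1.65 in WT cells, which would have passed the 2-fold limit, as 25.5% of all probes then did.

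The other 4 genes encode surface proteins, and 2 of them, Axl and Crim1, fell with density in both genotypes. Axl is a receptor tyrosine kinase of the TAM family whose ligand is Gas6. It was read at 12.25 and 12.06 in WT cells at low density and 10.83 and 10.75 at high density (A_52_P311787, chromosome 7, 25466694 to 25466753, minus strand, mm8). The KO channels gave 12.16 and 11.85 at low density and 10.85 and 10.81 at high density. Genotypes overlapped at each density, while the densities were apart. The density effect was -1.37 ± 0.08 in WT and -1.18 ± 0.19 in KO cells, and the genotype difference was -0.15 at low density and 0.10 without scaling between arrays, which is below the median of all probes there (0.27), and 0.04 at high density, -0.01 with median centring. Its difference between the density effects, 0.19, was the smallest in size of the 10.

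Crim1 is a transmembrane protein with cysteine-rich repeats that binds bone morphogenetic proteins. The brighter of its probes (A_52_P46447, chromosome 17, 78281017 to 78281076, plus strand, mm8) gave 13.54 and 13.45 in WT cells at low density and 11.19 and 11.14 at high density, and 13.35 and 13.51 then 12.17 and 11.84 in KO cells. Low density channels overlapped between genotypes, and KO channels at high density lay above WT channels. Its density effect was -2.33 ± 0.03 in WT (5.02-fold) and -1.43 ± 0.35 in KO cells, and the second probe (A_51_P496640) gave -2.20 and -1.05. The density effects differed by 0.90 ± 0.38 on the first probe and 1.16 ± 0.42 on the second, on either side of the 2-fold limit. At high density KO exceeded WT by 0.84 and 0.79, both under the limit, although the first was 1.1 without scaling between arrays. At low density the genotypes differed by -0.07 on the first probe, with dyes of opposite sign and 0.20 without scaling between arrays, and by -0.37 on the second.

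F3 encodes tissue factor, the membrane protein that starts the clotting cascade, and was the one member that was lower in KO cells at high density. Its brighter probe (A_51_P236846, chromosome 3, 121726440 to 121726499, plus strand, mm8) read 12.62 and 12.68 in WT cells at low density and 13.19 and 13.13 at high density. In KO cells it read 13.16 and 13.00 at low density and 11.04 and 10.87 at high density. All other channels lay above the KO high density channels. The density effect was 0.51 ± 0.08 in WT cells and -2.12 ± 0.01 in KO cells, and a second probe that overlaps the first (A_52_P683413) gave 0.47 and -1.86. The ratio of KO over WT was 0.43 at low density and turned to -2.21 ± 0.08 at high density, a 4.61-fold lower signal. The density effects differed by -2.63 ± 0.08, and 0.409% of all tested genes lay lower.

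Nt5e encodes CD73, the surface enzyme that makes adenosine from AMP. Its probe well above background (A_52_P574668, chromosome 9, 88169671 to 88169730, plus strand, mm8) read 6.93 and 7.20 in WT cells at low density, 6.71 and 6.93 at high density, 7.36 and 7.47 in KO cells at low density and 8.10 and 8.19 at high density. The KO high density channels were the highest and the WT densities met at 6.93. KO exceeded WT by 1.32 ± 0.09 at high density (2.50-fold), 2.16 with the processed signals, and by 0.35 at low density. Its density effect was -0.24 ± 0.04 in WT and 0.72 ± 0.02 in KO cells, below 2-fold, with 1.09 in KO cells with the processed signals. The other Nt5e probe (A_51_P156740) was well above background in no channel and gave 5.84 to 6.08 in all 8, so the change rests on 1 probe.

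Between the genotypes, 2 of the 10 genes were higher in KO cells at low density (Amotl2 and Foxf2) and none was lower, where 6.86% of 23336 tested probes were higher and 7.07% lower. At high density 6 were higher (Amotl2, Jub, Fjx1, Foxf2, Gadd45b and Nt5e), with 6.41% of 23609 probes higher, and F3 was lower, with 6.62% lower. The median genotype difference was 0.39 at low and 1.37 at high density, against 0.03 over all tested genes at each. Ankrd1 (0.00) and Axl (0.04) were the members nearest to 0 at high density. Without scaling between arrays the median of all probes moved to 0.27 at each density, and the member medians to 0.63 and 1.61. Those are 0.36 and 1.34 above that shift.

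**Figure D3:**
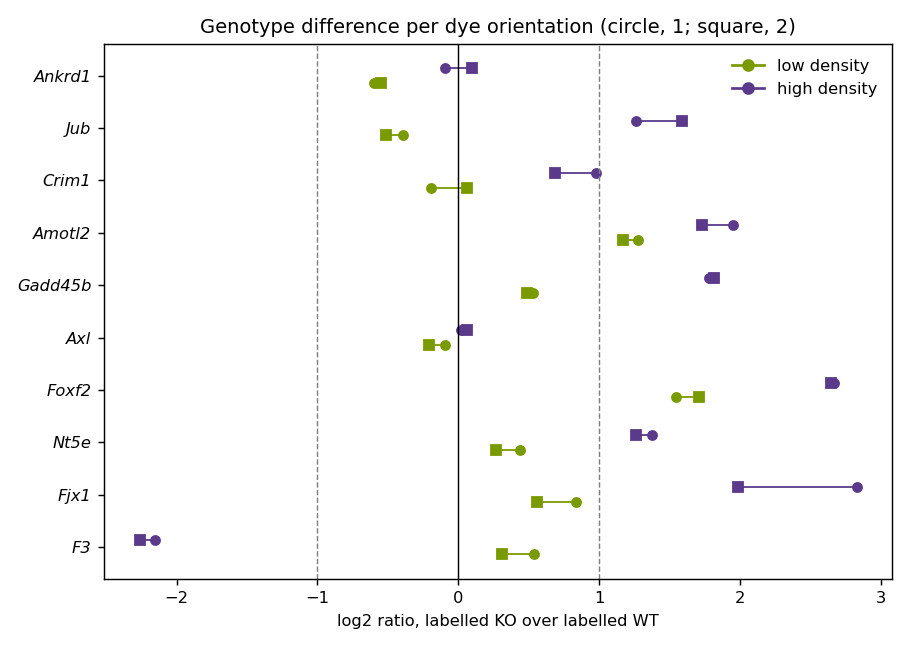
Genotype difference of the 10 genes as the log2 ratio of KO over WT (x axis) at low density (green) and high density (purple), 1 point per dye orientation (circle, 1; square, 2) joined by a line; dashed lines mark a 2-fold difference. At high density 6 genes lie right of the 2-fold line and F3 left of it, at low density Amotl2 and Foxf2 lie right of it.

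The density effects of the genotypes, each from its own 2 arrays, were set against each other. They use the same channels as the genotype differences. The difference of density effects and the difference of genotype effects are thus 1 quantity and are no separate evidence. It passed the 2-fold limit upward for 4 of the 10 genes (Jub, Fjx1, Gadd45b and Foxf2), with 3.78% of 21541 probes higher, and downward for F3, with 4.22% lower. The median was 0.93 against 0.02 over all tested genes, and 9 of 10 values were above 0. Nt5e at 0.97 and Crim1 at 0.90 lay just under the limit and Foxf2 at 1.03 just over it, and all these calls moved with the processing. Foxf2 ranged from 0.92 with median centring to 1.88 with the processed signals, Nt5e reached 1.22 with the smaller offset and 1.65 with the processed signals, and Crim1 reached 1.03 as the mean of its probes. In the order of these values Ankrd1, Amotl2, Crim1, Nt5e and Fjx1 each overlapped with the next gene on its single arrays, while F3, Axl and Gadd45b stood apart from their neighbours. A difference of this kind could not be tested with 1 replicate per group.

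**Figure D4:**
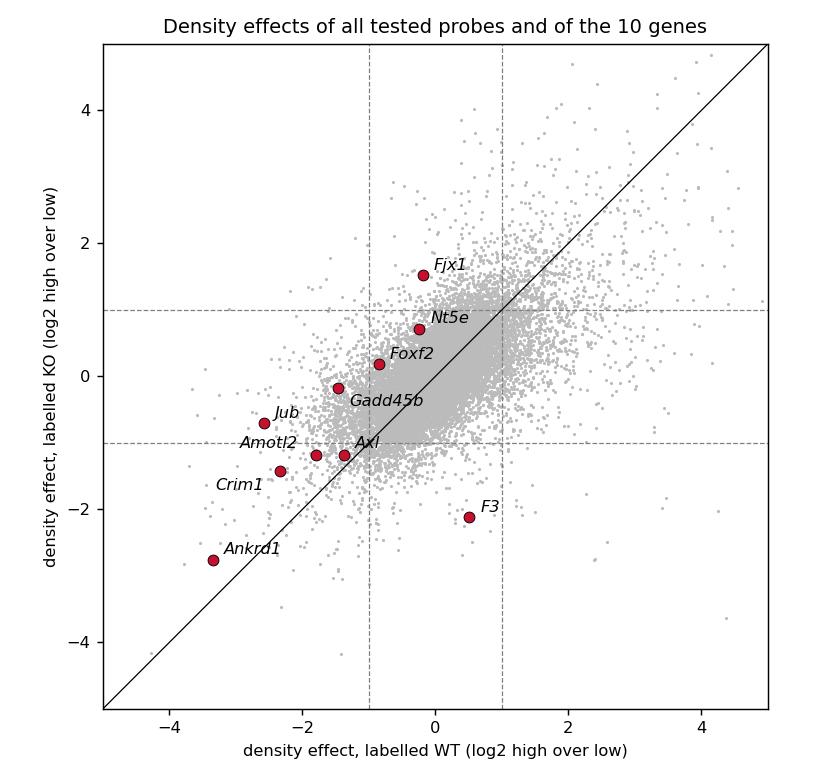
Density effect (log2 ratio of high over low density) in WT cells (x axis) and KO cells (y axis) for 21541 tested probes in grey, of which 11 lie outside the axes, and the 10 genes in red; the solid line marks equal effects and dashed lines 2-fold changes. Of the 10 genes 9 lie above the line of equal effects, Axl closest to it, and F3 lies below it.

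The CCN genes Ctgf and Cyr61, the matricellular targets most often used as readouts of YAP, had density effects of -5.77 and -2.98 in WT cells and -3.25 and -1.35 in KO cells. Their genotype differences were -0.48 and -1.47 at low density and 2.03 and 0.16 at high density. Ankrd1 lay between them in both genotypes.

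A longer list of 34 further genes commonly given as YAP or TAZ targets was followed by the same rule. In WT cells 14 of 33 tested fell and 4 rose (5.72% and 7.62% over all tested probes), with a median of -0.77. In KO cells 9 of 33 fell and 5 rose (3.73% and 5.90%), with a median of -0.32. Thbs1, a matricellular protein, had log2 density effects of -3.45 in WT and -1.63 in KO cells. The kinase gene Sgk fell in WT cells (-2.48) and read 0.26 in KO cells, where it was already lower than in WT cells at low density (-3.23), with -0.49 at high density. Tgfb2 rose by 2.28 in WT cells and read -0.20 in KO cells, and Slit2, a guidance ligand, rose by 3.52 in KO cells on its brightest probe and read 0.99 in WT cells. At low density 6 of 34 were higher in KO cells and 3 lower (6.86% and 7.07% over all probes), and at high density 10 were higher and 2 lower (6.41% and 6.62%). Igfbp3, a binder of insulin-like growth factors, was not well above background in WT cells, and its brightest probe was at least 19.8-fold higher in KO cells at low density and at least 245-fold higher at high density. The other Igfbp3 probes gave bounds of at least 8.52-fold and 4.75-fold at high density. Edn1 was at least 5.31-fold higher at high density. The list median of the genotype difference was 0.16 at low density, against 0.38 at high density. The density effect differed upward for 8 of 32 and downward for 4 (3.78% and 4.22% over all probes), with a median of 0.38.

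The regulators themselves were followed by the same rule. Of 19 genes for Hippo kinases and their scaffolds, YAP, TAZ, TEADs and Vgll cofactors, 2 of 18 tested fell with density in WT cells (Lats2 at -1.13 and Vgll3 at -1.13) and 2 of 19 in KO cells (Wwc1 at -1.66 and Lats2 at -1.02), and none rose. Over all probes 5.72% and 3.73% fell, and 7.62% and 5.90% rose. The density effects of the 4 Lats2 probes ran from -1.13 to -0.56 in WT cells, on either side of the limit, and from -1.19 to -1.02 in KO cells. Of 18 regulators tested, 0 had a density effect that differed between genotypes by 2-fold, where 3.78% of all probes differed upward and 4.22% downward. At low density 4 of 19 were higher in KO cells (6.86% over all probes), Lats1 at 1.47, Lats2 at 1.38, Wwc1 at 1.27 and Wwtr1, the TAZ gene, at 1.11. Tead2 was lower there (-1.60), with 7.07% of all probes lower. At high density 3 of 18 were higher (6.41% over all probes), Lats2 at 1.49, Wwtr1 at 1.32 and Lats1 by at least 2.09-fold, and Tead2 (-1.21) and the kinase gene Stk3 (-1.12) were lower (6.62% over all probes). These are values of the brightest probe. Between genotypes the 4 Lats2 probes ran from -0.63 to 1.39 at low and from -1.26 to 1.49 at high density, and the other Wwtr1 probe gave 0.48 and 0.70, under the limit. The 4 Stk3 probes ran from -1.12 to -0.37 at high density. Yap1 read 0.99 and 0.76 at low and high density, under the limit.

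Relatives and direct partners of the 10 genes were also listed, 22 in all, of which 17 or 18 were tested per comparison. In WT cells 5 rose with density and 1 fell (7.62% and 5.72% over all probes), and in KO cells 4 rose and 2 fell (5.90% and 3.73%). Gas6, the ligand of Axl, rose by 2.64 in WT cells while Axl fell, and read -0.10 in KO cells, and was lower in KO cells at high density (-2.46). Fat4 and Dchs1, cadherins whose fly counterparts are acted on by four-jointed, rose by 2.82 and 2.11 in WT cells and by 1.73 and 2.61 in KO cells. The rise of Dchs1 rests on 1 of its probes, as the other gave 0.31 and 0.16. Gadd45g fell by 2.08 in WT cells and read -0.59 in KO cells, with the genotypes apart by 1.84 at high density, close to the 1.80 of its relative Gadd45b. Amot, the relative of Amotl2, rose by 1.82 in WT cells, where Amotl2 fell, and read 0.18 in KO cells. The BMP ligand gene Bmp4 rose by 1.78 and 1.52, and Adora2b, a receptor for adenosine, fell by 1.44 in KO cells. Tfpi, the inhibitor of the tissue factor pathway, was higher in KO cells by 1.72 and 1.52 at low and high density on its brightest probe, where F3 was 0.43 and -2.21. Its 4 tested probes disagreed, running from -1.16 to 1.72 at low and from -0.26 to 1.52 at high density. Between genotypes 2 partners were higher and 1 lower at low density (6.86% and 7.07% over all probes), and 3 were higher and 4 lower at high density (6.41% and 6.62%). The density effect differed upward for 1 and downward for 4 of 17 (3.78% and 4.22%).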

How the data were processed

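The authors scanned the arrays and, per the file headers, extracted them with Agilent Feature Extraction 10.5.1.1. For each dye the deposited files give mean spot intensity and the median intensity of the local background, both raw, beside processed signals, flags of 0 or 1 and a log10 ratio of Cy5 over Cy3 processed signal. The deposited value table was checked to be that log10 ratio after rounding and turning the sign on swapped arrays (high over low density; largest difference in size 0.00499, median 0 on each array). Genotype, density and dye came from the labels, where LAT2 in the source names stands beside Lats2 in the genotype.

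Raw intensity was corrected with limma 3.58.1 with R 4.3.3 and data.table (1.17.8) by normexp with an offset of 50, which shrinks ratios of dim probes, and normalized by loess within arrays. Features of a probe were averaged, and control and outlier-flagged features left out. Density effects are log2 ratios averaged over the dye swap. For genotype differences single channels were scaled between arrays (Aquantile), and KO was set against WT within a dye. A probe entered a comparison if both readings of at least 1 of its sides were well above background. Levels of different probes were not compared. Bounds ("at least") used the lowest signal well above background on the dim side. Python 3.11.15, numpy 2.4.6, pandas 2.3.3 and matplotlib 3.10.9 were used. Precision is limited by the number of arrays. The SD of an array around its pair was 0.0987 for WT and 0.143 for KO.

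The genes named were all 10 members with every probe, Lats2, Lats1, Ctgf and Cyr61, up to 4 of the largest changes per list and contrast, and the 5 nearest genes to Ankrd1. Yap1 and the markers were added for their role. A gene that the rule would name is not reported here. Members and lists were chosen with earlier results of these data known. The size rule was run on simulated ratios whose noise came from the dye swaps, so spread between cultures beyond that noise was not covered. Promoters came from RefSeq (GRCm38.p6) and probe positions from the array annotation (mm8), with no conversion between them. Alternatives were a 1.4-fold threshold, an offset of 16, processed signals, median centring, the deposited values, the mean over probes, other background filters, other scaling between arrays and leaving out each array. For genotype differences and the difference of density effects, leaving out an array also dropped the other genotype's array of the same dye orientation.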

Additional observations from a re-analysis of the deposited data

Results flagged for a closer look

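Some values stood out because all arrays of 1 genotype, or both dyes at 1 density, pointed one way and those of the other the opposite way. With 1 replicate per group the difference was not tested for any of them. The density effect ran in opposite directions in the genotypes for F3 (KO minus WT -2.63), Fjx1 (1.71) and Nt5e (0.97), where F3 was above 0 in WT cells and Fjx1 and Nt5e were above 0 in KO cells. The genotype difference ran in opposite directions at the densities for Jub (high minus low density 1.88), F3 (-2.63) and Axl (0.19). The Axl values were -0.15 at low and 0.04 at high density, both near 0. Without scaling between arrays the former was 0.10, below the 0.27 to which the median of all probes moved, and with median centring the latter was -0.01.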

How the results depend on the processing

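Of the 109 values recomputed for the counts and medians of the 10 genes under the alternatives, 98 stayed within 1.5 times the count or within 1 SD of the arrays, and none changed sign. Part of these could hardly have moved. The background filters left every value as it was, since all 10 genes cleared background in all 8 channels. A value from 1 of 2 arrays tends by arithmetic to lie within their SD of the mean. The share that stayed is thus no measure of how firm the results are. The median WT density effect of -1.41 became -1.54 with processed signals, -1.64 with median centring and -1.58 with the deposited table. That of KO cells, -0.94, became -1.18 with median centring and ranged from -0.81 to -0.92 when 1 KO array was left out. The median genotype difference at high density, 1.37, was 1.66 with an offset of 16, 1.87 with processed signals and 1.61 without scaling between arrays, and that at low density, 0.39, was 0.63 without that scaling. At a 1.4-fold threshold the counts at low density and of differing density effects rose from 2 to 5 and from 5 to 9 genes, where 40.3% and 28.4% of all probes passed. With median centring, 43.9% of changed probes were higher in WT cells and 40.3% in KO cells, against 57.1% and 61.3%, and without scaling between arrays 72.3% and 70.2% were higher in KO cells at low and high density, against 49.2% at each. At the 1.4-fold threshold calls were gained by 9 genes, all but Axl. Under the other alternatives the calls that moved were those of Foxf2, Nt5e, Crim1 and Fjx1. Foxf2 lost its differing density effect with 1 array orientation alone (0.93) and with median centring (0.92), and reached -1.70 in WT cells in the deposited table. Fjx1 reached 1.27 at low density with processed signals. No paired analysis was possible because each group holds 1 replicate. Signal over background limits the ratios of dim probes, which the offset shrinks.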
